A study of Mus musculus with 6 samples.

Results

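The 10 genes described here are the direct neighbours of Foxe1 on mouse chromosome 4. They are the 5 nearest named genes on either side of it in the RefSeq gene order of assembly GRCm38.p6, leaving out Gm, Rik and LOC names, and all 10 are measured among 19505 named genes in thyroid RNA. RefSeq lists 6 further genes with Gm names between Xpa and Foxe1 and 0 between Foxe1 and Trmo. No probe set carries the name of any of these alone, so they could not be analysed here. In order along the chromosome the 10 are Tdrd7, Tmod1, Tstd2, Ncbp1 and Xpa on the side of lower position (the proximal side), then Foxe1, then Trmo, Hemgn, Anp32b, Nans and Trim14 on the side of higher position (the distal side). The study compared 3 Foxe1flox/flox/Cre mice, called knockouts here, with 3 Cre control mice. All were of a C57BL/6J background and were given tamoxifen at 0.05 g/kg into the peritoneum each day for 5 days, from an age of 6 to 8 weeks. Thyroid was collected 2 weeks after treatment, with 1 lobe and 1 array per animal. Both groups carry Cre and received the drug, so the controls lack the floxed Foxe1 alleles rather than Cre. The sources used here do not name the promoter that drives Cre, nor the sex of the mice. The series has no group with floxed but undeleted alleles, so carrying the floxed alleles and losing Foxe1 cannot be told apart.

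Foxe1 encodes a forkhead factor needed for thyroid development and active in follicular cells, which make thyroid hormone. Its neighbours share its stretch of chromosome and not its function. They include a DNA repair gene, an RNA cap-binding gene, an enzyme that modifies transfer RNA, an enzyme of sialic acid synthesis, an actin-capping gene, a gene of red cell precursors and an innate immune gene. Regulatory elements can act on more than one gene along a chromosome, and altering a locus can also change transcripts beside it, which is why neighbours of a deleted gene are looked at in knockout designs. The question here is which of these 10 genes differed between knockout and control thyroid, and how this varied with side and with distance from Foxe1, counted in genes.

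Xpa, the nearest named gene on the proximal side, rose 4.26-fold in the knockout. It was the single neighbour of the 10 that passed the test, a limma adjusted p below 0.05 (passed by 0.338% of all probe sets). Ncbp1, the next named gene on the same side, was higher by 1.20 on the log2 scale on average without passing the test. The other 8 neighbours had differences between -0.43 and 0.36, and none of them passed. On the distal side the nearest gene, Trmo, differed by -0.18 (95% interval -0.61 to 0.25).

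Promoter windows from RefSeq (build GRCm38.p6, the 250 bases before each annotated start) were held for 8 of the 10 neighbours, in 12 windows. The windows of Xpa, the member that passed the test, and of Hemgn and Anp32b from the distal side are shown, because these alone hold bases outside every annotated gene and overlap no neighbouring gene. The window of Xpa lies at chr4:46196345-46196561 on the minus strand, after leaving out the bases that fall inside its longest annotated gene span. That of Hemgn lies at chr4:46404184-46404433 on the minus strand and that of Anp32b at chr4:46450676-46450925 on the plus strand. All run 5′ to 3′, and capitals mark a match, on either strand, to the CCAAT box (CCAAT), the GC box (GGGCGG), the TATA box (TATAAA) or a forkhead core (TGTTTNC). Matches may overlap.
Xpa: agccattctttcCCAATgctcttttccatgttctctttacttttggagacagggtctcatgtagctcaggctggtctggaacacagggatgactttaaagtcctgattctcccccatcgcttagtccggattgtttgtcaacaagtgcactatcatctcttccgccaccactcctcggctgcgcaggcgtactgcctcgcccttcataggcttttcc
Hemgn: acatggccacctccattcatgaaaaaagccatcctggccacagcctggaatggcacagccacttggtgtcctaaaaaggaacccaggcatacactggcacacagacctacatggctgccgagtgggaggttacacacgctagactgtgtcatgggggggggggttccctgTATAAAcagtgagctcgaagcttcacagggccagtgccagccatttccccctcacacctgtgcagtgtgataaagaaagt
Anp32b: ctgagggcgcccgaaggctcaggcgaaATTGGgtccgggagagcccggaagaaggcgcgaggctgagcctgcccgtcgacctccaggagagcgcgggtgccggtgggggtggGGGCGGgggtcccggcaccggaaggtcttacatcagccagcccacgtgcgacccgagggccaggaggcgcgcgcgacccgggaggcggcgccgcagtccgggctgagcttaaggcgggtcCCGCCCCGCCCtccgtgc

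Over its 250 bases the Xpa window holds 52% G and C, with a CCAAT match and no GC box. The Anp32b window holds 75.2% G and C with 3 GC box matches, some of which overlap, and the Hemgn window 54.4% with a TATA box match. Among the 12 windows of the neighbours, GGGCGG was found in 5, CCAAT was found in 3, TATAAA in 3 and TGTTTNC in 0. Of all 32851 windows of this length, 32.7% hold GGGCGG, 33.8% hold CCAAT, 12.4% hold TATAAA and 17.8% hold TGTTTNC. These counts describe exact letters in a short window and do not say where any factor binds. Other spellings of these motifs were not searched. The printed Xpa window holds TGTTTGT, and that of Hemgn holds TGTTTAT on the other strand. Both depart from TGTTTNC in the last base alone and are not marked. By strand, the starts of 3 neighbours (Xpa, Tstd2 and Anp32b) face Foxe1 and those of 5 (Tdrd7, Tmod1, Ncbp1, Trmo and Hemgn) face away, so Xpa and Ncbp1, with the largest differences, are oriented opposite ways. Ncbp1 and Tstd2 are divergent genes whose annotated starts lie side by side and whose windows overlap.

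The values are log2 levels of 22206 probe sets after RMA, a method that corrects background, equalises arrays and summarises the probes of a set. Array medians lay between 5.62 and 5.69 and array lower quartiles between 3.49 and 3.60. With 3 arrays per group, the number of arrays limits the precision of every value. Each of the 10 neighbours and Foxe1 is measured by 1 probe set. Foxe1 had control values of 7.60, 7.19 and 7.04 and knockout values of 3.33, 2.88 and 3.04. All knockout values lay below the lower quartile of the arrays, and Foxe1 fell by 4.19 on the log2 scale (SE 0.22, limma adjusted p = 0.000442), in the direction the labels give for the targeted gene. Values this low cannot be told from background, so 4.19 is a measured difference and the fall may be larger.

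**Figure D1:**
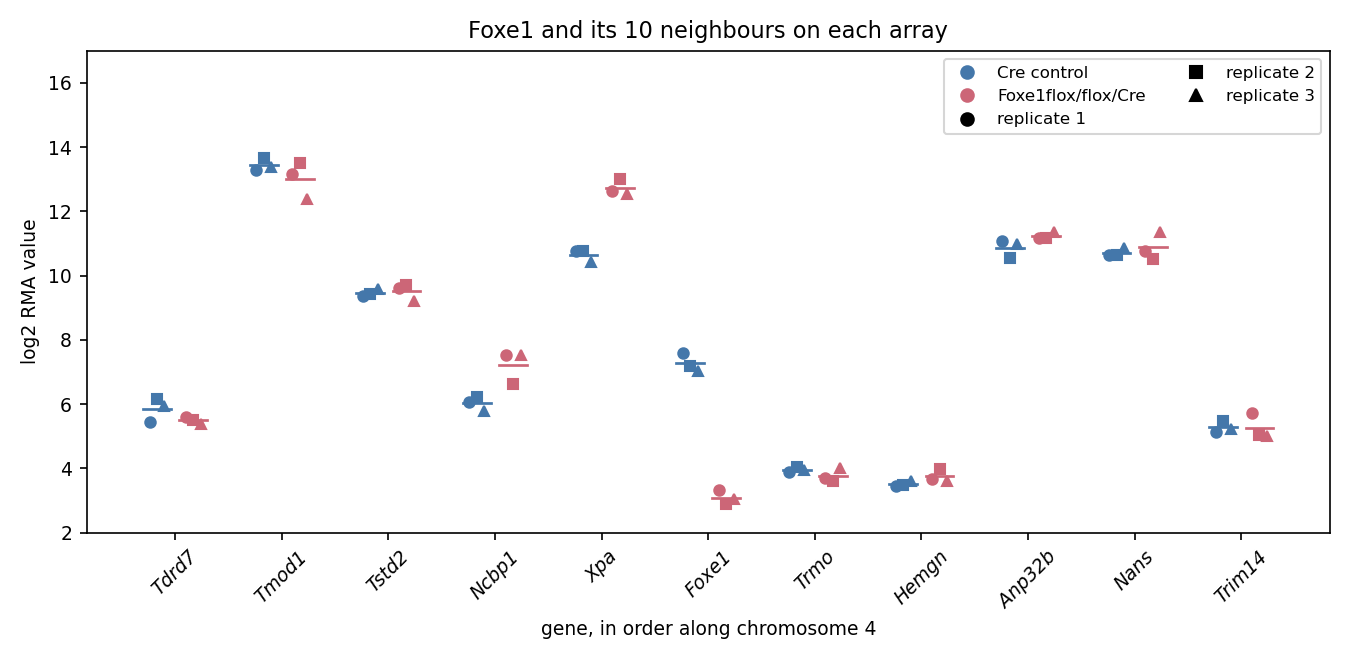
Log2 RMA values of Foxe1 and its 10 neighbours on each of the 6 arrays, with genes in chromosome order on the horizontal axis. Points are single arrays, marker shapes give the replicate number and lines give group means (3 arrays each). Xpa stands at 10.41 to 10.75 in the controls and 12.54 to 13.01 in the knockouts, while Foxe1 stands at 2.88 to 3.33 in the knockouts and the groups of most other neighbours overlap.

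Xpa encodes a zinc finger protein that binds damaged DNA and helps assemble the nucleotide excision repair complex, the machinery that removes bulky lesions such as those made by ultraviolet light. It had control values of 10.75, 10.75 and 10.41 and knockout values of 12.63, 13.01 and 12.54. The lowest knockout stood 1.79 above the highest control, so the groups were well apart. The means were 10.64 ± 0.20 and 12.73 ± 0.25 (SD, n = 3 each), a rise of 2.09 (SE 0.21, 95% interval 1.62 to 2.56, limma adjusted p = 0.0155). As a fold, the interval runs from 3.08 to 5.89. By p-value Xpa was number 5 of the 22206 probe sets, and by size number 55 among the rises.

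The size of the Xpa difference moved little with the arrays used, but its call did not hold in every case. Leaving out each array in turn gave differences between 1.95 and 2.18. The limma adjusted p was 0.0404 without control 1, 0.0462 without control 3 and 0.0431 without knockout 2. It was 0.0524 without control 2, 0.0718 without knockout 1 and 0.0591 without knockout 3, which are above the threshold of 0.05. Across these 6 fits between 2 and 43 of 22206 probe sets passed, against 75 with all arrays.

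Ncbp1 encodes the large subunit of the nuclear cap-binding complex, which holds the cap of new transcripts and takes part in their splicing, export and first round of translation. Controls gave 6.06, 6.23 and 5.78, and knockouts gave 7.52, 6.63 and 7.53. All knockouts were above all controls, with knockout 2 only 0.40 above the highest control. The means were 6.02 ± 0.23 and 7.23 ± 0.52 (SD, n = 3 each), a difference of 1.20 (SE 0.28, 95% interval 0.58 to 1.83, limma unadjusted p = 0.00194, adjusted p = 0.122). Without knockout 2 the difference was 1.50 (adjusted p = 0.0863), and over the 6 fits that leave out an array it ran from 1.05 to 1.50 with no call.

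Beyond Ncbp1 the proximal side showed no call. Tstd2, which encodes a protein with a sulfurtransferase domain, had control values of 9.37, 9.43 and 9.59 and knockout values of 9.62, 9.71 and 9.21. Its groups overlapped, and the difference was 0.05 (95% interval -0.41 to 0.51), although its start adjoins that of Ncbp1. The difference between Tstd2 and Ncbp1 in response was not tested.

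Tmod1 encodes tropomodulin, which caps the slow-growing ends of actin filaments in striated muscle and red cells. It had control values of 13.30, 13.67 and 13.37 and knockout values of 13.16, 13.50 and 12.39, a difference of -0.43 (95% interval -1.08 to 0.22, limma adjusted p = 0.594). Knockout 3 was the lowest array, and without it the difference was -0.12. Skeletal muscle genes were lowest on the same array. The mean log2 level of 13 muscle markers was 16.31 to 16.50 in the controls, 15.98 and 16.05 in knockouts 1 and 2 and 15.07 in knockout 3. All 13 had negative differences, with 0 past the threshold and 6 at an unadjusted p under 0.05 (12.7% of all probe sets), and every one of them lay above the lower quartile in the controls. Their part in the Tmod1 values was not tested. In bulk tissue, fewer cells of a type and less RNA per cell cannot be told apart.

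Tdrd7, a Tudor domain gene known from RNA granules of germ cells and the eye lens, had control values of 5.45, 6.15 and 5.93 and knockout values of 5.59, 5.49 and 5.39. The groups overlapped through control 1, and the difference was -0.35 (95% interval -0.85 to 0.15, limma adjusted p = 0.56). Without control 1 it was -0.55 and without control 2 it was -0.20.

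On the distal side no neighbour passed, and in 1 of 5, Anp32b, the groups did not overlap, beside 18.1% of all probe sets. Trmo, which encodes a methyltransferase for transfer RNA and is the nearest gene on that side, had control values of 3.87, 4.04 and 3.96 and knockout values of 3.71, 3.59 and 4.02. Hemgn, a nuclear protein gene of blood precursors, had control values of 3.45, 3.49 and 3.61 and knockout values of 3.68, 3.97 and 3.60, a difference of 0.23 (95% interval -0.19 to 0.65). Without knockout 2 the difference was 0.12 for Hemgn and -0.09 for Trmo, and without knockout 3 it was -0.31 for Trmo. The groups of both genes overlapped. Both stood near the lower quartile of the arrays, so a low value there cannot be told from background and a fall could hardly be seen.

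Anp32b, of a family of acidic nuclear proteins that act as histone chaperones, had control values of 11.09, 10.54 and 10.99 and knockout values of 11.16, 11.17 and 11.37. All knockouts were above all controls, by a margin of 0.07, and the difference of 0.36 had a 95% interval of -0.11 to 0.83 (limma adjusted p = 0.518). Without control 2 it was 0.19. The Anp32 genes are alike in sequence, so its probes may also take up transcripts of its relatives, and its value is uncertain to that extent.

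Nans, the sialic acid synthase, had control values of 10.65, 10.63 and 10.85 and knockout values of 10.76, 10.52 and 11.36. Its groups overlapped, and the difference of 0.17 (95% interval -0.38 to 0.72) was -0.07 without knockout 3, its highest array. Trim14, a TRIM family gene that takes part in antiviral signalling at mitochondria, had control values of 5.12, 5.47 and 5.22 and knockout values of 5.71, 5.03 and 4.99. Knockout 1 was the highest of the 6 arrays and knockout 3 the lowest, so the groups overlapped, and the difference was -0.03 (95% interval -0.57 to 0.52).

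Counted together, 1 of the 10 neighbours passed the limma threshold, beside 75 of all 22206 probe sets. An unadjusted p under 0.05 was reached by 2 of 10, against 12.7% of all probe sets. In 3 of 10, all of them higher in the knockout, the groups did not overlap, against 18.1% of all probe sets in either direction and 9.28% in the higher direction. These were Xpa, Ncbp1 and Anp32b. The differences were positive for 6 and negative for 4, with a median of 0.11, beside a median of -0.02 over all probe sets. The median was 0.05 for the proximal 5 and 0.17 for the distal 5, an order that turned with array weights (0.11 and 0.06) and without knockout 3 (0.20 and 0.10). The proximal median was -0.05 without knockout 2. The range was wider on the proximal side, from -0.43 to 2.09 against -0.18 to 0.36. A difference between the sides was not tested, and with 10 genes these counts rest on single genes.

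**Figure D2:**
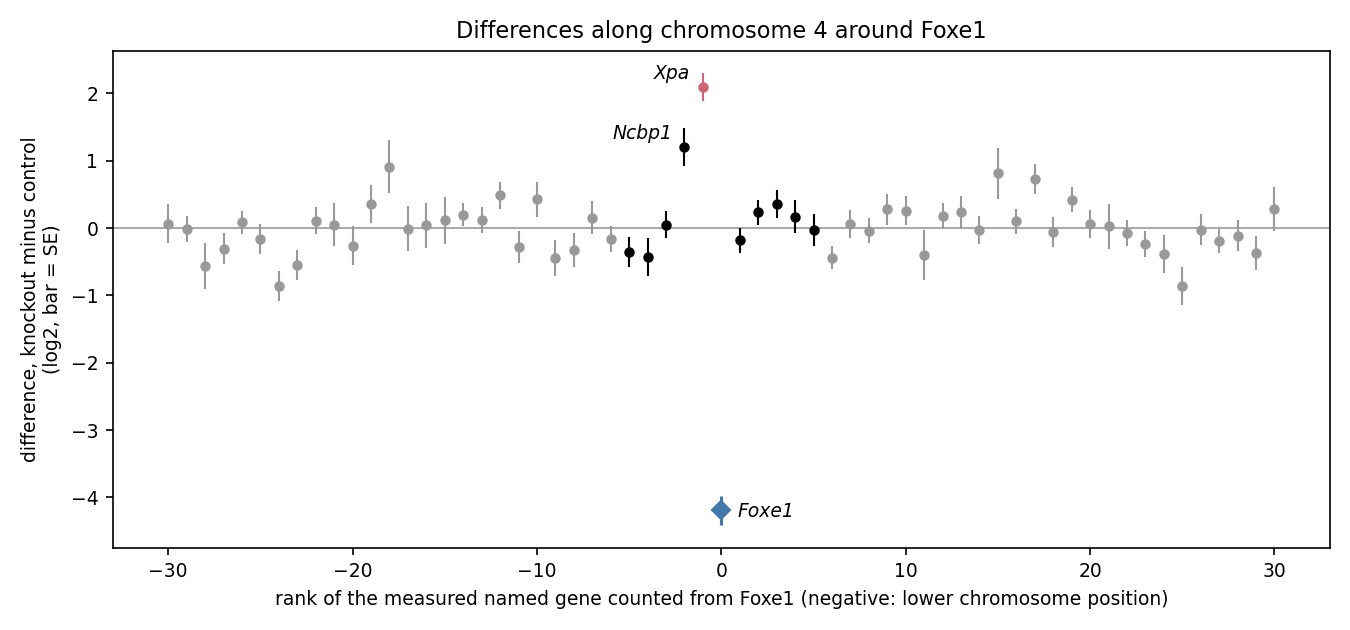
Difference between knockout and control (log2, points with bars of 1 SE from limma, 3 arrays per group) for the 30 nearest measured named genes on each side of Foxe1, by rank from it. Black points are the direct neighbours, the red point is the neighbour past the threshold, grey points lie farther out and the blue diamond is Foxe1 at -4.19. Xpa at 2.09 and Ncbp1 at 1.20 have the largest positive differences in the window.

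Farther out along the chromosome no ranked gene passed within rank 30, and differences lay between -0.86 and 0.91. Genes with Gm, Rik, LOC and similar names were not ranked. Of the 20 measured named genes at ranks 6 to 15 from Foxe1, 0 passed the limma threshold, and 2 had an unadjusted p under 0.05 (10%, beside 12.7% of all probe sets). These were Coro2a, an actin-binding coronin gene on the distal side, at -0.44 (adjusted p = 0.316), and Dcaf10, a substrate receptor gene of a ubiquitin ligase on the proximal side, at 0.48 (adjusted p = 0.367). Of the 30 at ranks 16 to 30, 0 passed the limma threshold and 6 had an unadjusted p under 0.05 (20%). The median absolute difference was 0.25 at ranks 6 to 15, 0.18 at ranks 16 to 30 and 0.21 over all probe sets. The 10 direct neighbours had a median absolute difference of 0.29, and 0.21 without Xpa and Ncbp1, which were left out after their values were seen.

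Among measured genes without Gm, Rik, LOC or similar names, Xpa was the sole called gene in a long stretch. On chromosome 4, 7 of 1108 such genes other than Foxe1 passed (0.632%), beside 57 of 18326 named genes elsewhere (0.311%). Gm, Rik, LOC and similar names were kept in the count elsewhere, so these shares are not like for like. Of all 19505 named genes 66 passed, Foxe1 among them, so a called chromosome 4 gene with such a name is in neither share. Its place on the chromosome is not given here. On the proximal side the nearest called gene of the 1108 after Xpa was Dnaic1, a gene of the motile cilium, at rank 80 (-1.21). On the distal side it was Hdhd3 at rank 95 (1.71), next to Alad at rank 96 (2.60). The other called genes among the 1108 were Skint1, Skint3 and Skint6 at distal ranks 290 to 296.

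The profile of Xpa over the 6 arrays was most like those of 3 genes on other chromosomes. With each gene centred on its own mean, Lonrf3 differed from Xpa by a mean absolute 0.11 per array, Cep128 by 0.14 and Kcnk5 by 0.21, over 19505 named genes. Their differences were 1.88, 2.10 and 2.06, a likeness to Xpa that their choice by profile fixed. Among the neighbours Ncbp1 was closest, at 0.46, which placed it as number 88 of all named genes.

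The marker lists are set beside Xpa as values. Of 8 measured thyroid follicular markers all had positive differences, with 0 past the threshold, 4 at an unadjusted p under 0.05 (12.7% of all probe sets) and 5 with groups that did not overlap (18.1% of all probe sets). Their mean log2 level was 9.64, 9.43 and 7.82 in controls 1 to 3 and lay between 10.28 and 10.63 in the knockouts, and 1 of the 8 (Slc26a4, the iodide transporter pendrin) was below the lower quartile in the controls. Slc5a5, the iodide symporter, had control values of 8.00, 8.00 and 2.97 and knockout values of 11.50, 10.34 and 11.61. Tg, the thyroglobulin gene, had overlapping groups and a difference of 0.04 (limma adjusted p = 0.962), and those of Nkx2-1 (0.73) and Dio1 (0.86) overlapped too. Control 3 was low in these markers, and its Xpa value of 10.41 was also the lowest, beside 10.75 in both other controls. In knockouts 1 to 3 the follicular marker means were 10.63, 10.28 and 10.58, beside Xpa values of 12.63, 13.01 and 12.54. Knockout 2 thus had the lowest marker mean of the knockouts and their highest Xpa value. Squamous epithelium markers were also higher, in 7 of 8, with mean levels of 14.86 to 15.17 in the controls and 15.56 to 16.23 in the knockouts. Markers of airway epithelium were lower in 7 of 7 (13.44 to 14.53 against 12.84 to 12.97), those of macrophages and dendritic cells in 6 of 7 (8.89 to 9.19 against 8.26 to 8.74) and those of lymphocytes in 5 of 6 (3.84 to 4.06 against 3.58 to 3.81). Parathyroid markers were lower in 3 of 3 but overlapped, at 13.24 to 16.93 in the controls and 5.95 to 14.77 in the knockouts. The mean levels of the other 5 marker lists (C cell, endothelial, fibroblast, adipocyte and erythroid) also overlapped between groups. No marker of the 12 lists passed the threshold, and those below the lower quartile in the controls numbered 4 of 6 for lymphocytes and 0 for squamous, airway, macrophage and parathyroid lists. The part of these tissues in the Xpa and Ncbp1 values was not tested.

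**Figure D3:**
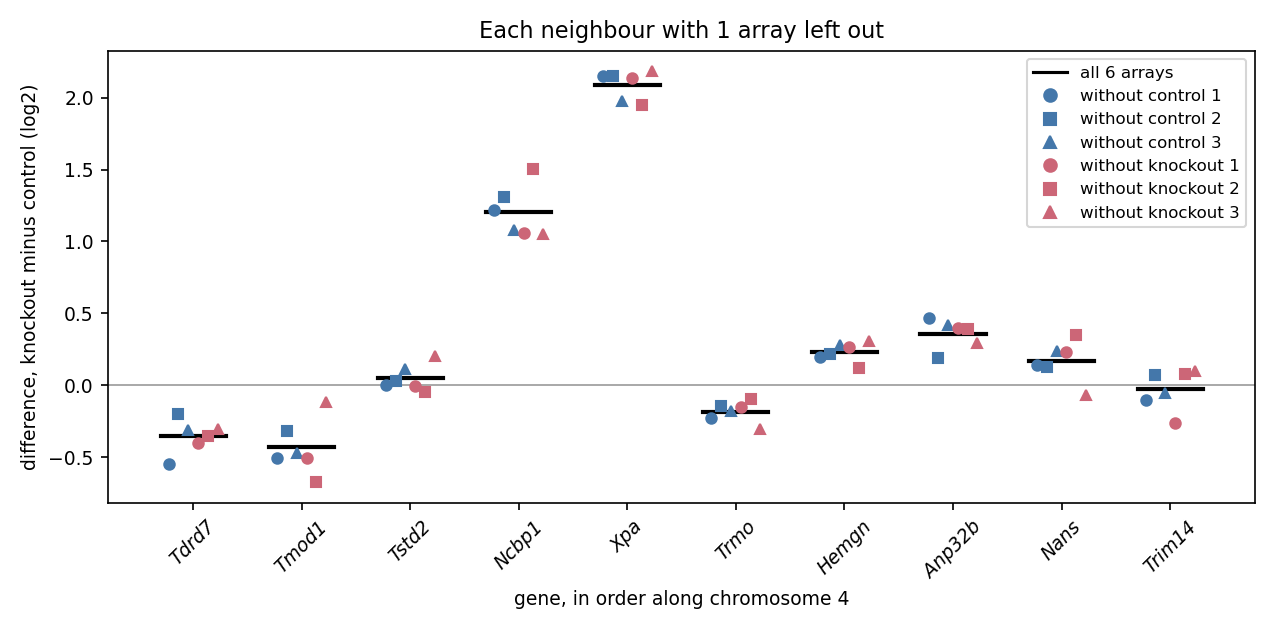
Difference between knockout and control (log2) of each neighbour with all 6 arrays (black line) and with 1 array left out (points, blue for a control and red for a knockout), in chromosome order. Xpa stays between 1.95 and 2.18 and Ncbp1 between 1.05 and 1.50, while Tstd2, Nans and Trim14 lie on both sides of 0.

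The other genes of each neighbour's pathway or family were set beside it. Of 20 other measured genes of nucleotide excision repair, the pathway of Xpa, 0 passed the limma threshold and 0 had an unadjusted p under 0.05, where 12.7% of all probe sets did. Their median difference was 0.01, with 10 of 20 positive. The smallest p belonged to Gtf2h4, a subunit of the repair and transcription factor TFIIH, at -0.41 (adjusted p = 0.424), and Rad23b, which helps recognise lesions, was at 0.33 (adjusted p = 0.569). Their differences ran from -0.41 to 0.39, beside 2.09 for Xpa itself.

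Cap binding and export genes, listed for Ncbp1, had positive differences in 9 of 12, a median of 0.22 and 0 past the threshold. Ctif, a translation factor that works with the cap-binding complex, was at 0.54 (adjusted p = 0.347) and the importin gene Kpna2 at 0.38 (adjusted p = 0.486). Sulfurtransferase domain genes, listed for Tstd2, had a median of -0.43 over 4 genes, with Tstd3 at -0.76 (adjusted p = 0.245) and Mocs3 at -0.45 (adjusted p = 0.348). Among 10 tropomodulins, leiomodins and tropomyosins, listed for Tmod1, Tpm4 was at 0.59 (adjusted p = 0.184) and Tmod4, also on the muscle marker list, at -1.03 (adjusted p = 0.235). For Tdrd7, 11 Tudor domain and germ granule genes had a median of -0.05, with Akap1 at -0.69 (adjusted p = 0.167) and Tdrd6 at -0.45 (adjusted p = 0.457).

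On the distal side, 9 genes that modify transfer RNA next to the anticodon, listed for Trmo, had a median of 0.01, with Osgepl1 at -0.67 (adjusted p = 0.178) and Yrdc at 0.41 (adjusted p = 0.386). Erythroid genes, listed for Hemgn, had 8 of 14 measured members, of which 4 were below the lower quartile in the controls. Alas2, of haem synthesis in red cells, was at -1.14 (adjusted p = 0.163) and Gata1, a blood transcription factor, at 0.42 (adjusted p = 0.491). For Anp32b, 9 relatives and histone chaperones had a median of 0.14, with Nap1l1 at 0.36 (adjusted p = 0.428) and Npm1 at 0.34 (adjusted p = 0.508).

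Sialic acid genes, listed for Nans, were lower in 8 of 11, with a median of -0.28 and 0 past the threshold. St3gal4, a sialyltransferase, averaged 8.13 ± 0.51 in controls against 6.46 ± 0.46 in knockouts (SD, n = 3 each), a difference of -1.67 (limma adjusted p = 0.0737). Gne, the enzyme that opens the pathway and itself a chromosome 4 gene at proximal rank 24, averaged 12.46 ± 0.33 and 11.60 ± 0.22 (SD, n = 3 each), a difference of -0.86 (limma adjusted p = 0.16). Nans, which acts after Gne, was at 0.17. RNA sensing genes, listed for Trim14, had a median of -0.28 over 13 genes, with Oasl2 at -1.85 (adjusted p = 0.0729) and Irf7 at -1.22 (adjusted p = 0.327), both interferon-induced. No member of the 10 lists passed the limma threshold over all probe sets.

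**Figure D4:**
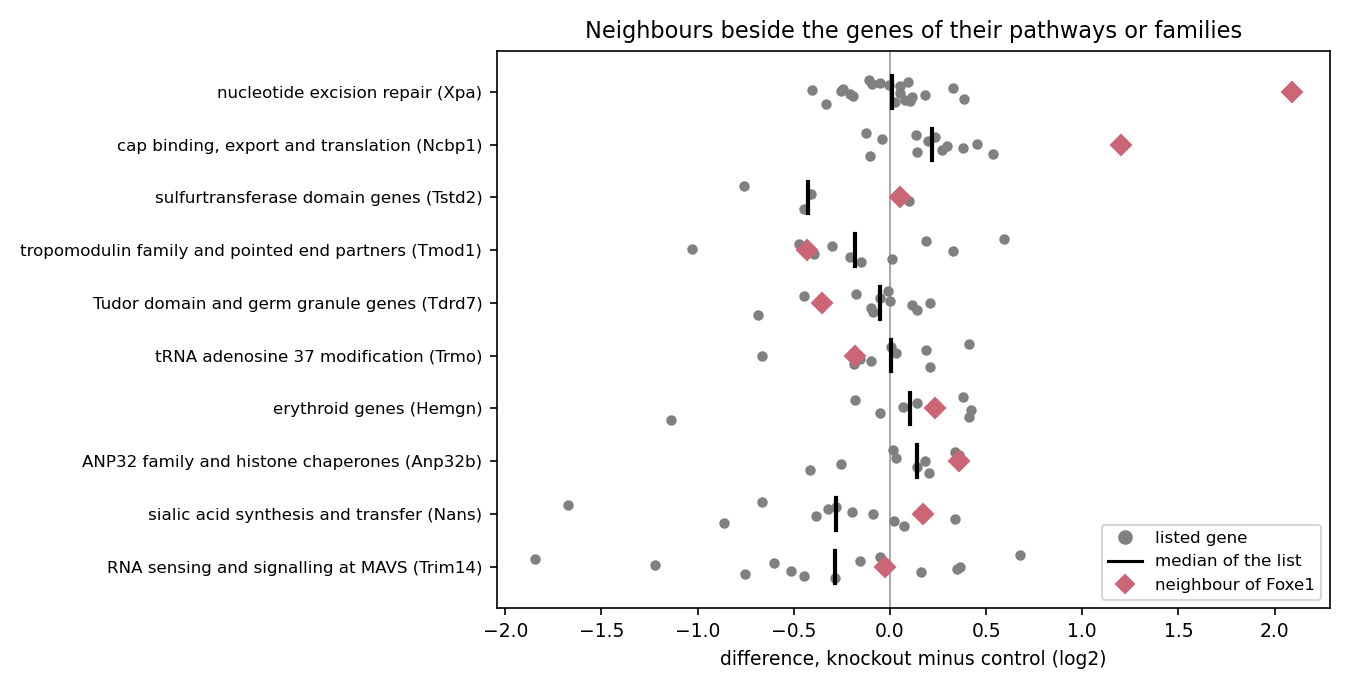
Difference between knockout and control (log2) of the measured genes in 10 lists, 1 for each neighbour (grey points, with the median as a black line), beside the neighbour itself (red diamond). Xpa at 2.09 and Ncbp1 at 1.20 lie outside the range of their lists, and the other neighbours lie within or at the edge of theirs.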

How the data were processed

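Thyroid RNA of 6 mice was measured on whole-transcript Affymetrix arrays. The deposited table holds log2 values, which the authors obtained by RMA. The submitters' processing notes name Affymetrix Expression Console; its version and settings and the genome build were not given in the sources used here. RMA makes array distributions alike, so shifts shared by most transcripts are lost. Differences of very dim probe sets may be understated. The deposited values ran from 1.96 to 19.93, and 23 array values stood at that maximum, so differences of the brightest probe sets may be cut short. Whether folds between these ends are too small or too large on this scale was not tested. Probe sets were named by the platform annotation of 2019, updated by gene identifier to RefSeq (19572 of 22206 with 1 symbol, all matched), with the brightest probe set per gene. Gene order came from RefSeq of assembly GRCm38.p6. Distance from Foxe1 was counted in genes rather than bases, since the build behind the array annotation is not named. All probe sets were fitted with limma 3.58.1 in R 4.3.3 (lmFit, eBayes). Its two-sided p-values were adjusted by Benjamini-Hochberg over all 22206, and 0.05 was the threshold. A positive difference means a higher knockout mean. The fit was first run on simulated data as a check of the code. How often it calls changes of the size seen for Xpa or Ncbp1 is not given here. Figures used matplotlib 3.10.9 in Python 3.11.15.

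The members, the 10 pathway and 12 marker lists and the alternatives were chosen with earlier results of these data known. Named genes were Foxe1, the members, the genes past the threshold or with the smallest p in each list and at ranks 6 to 15, marker genes where a list moved, and the 3 profiles closest to Xpa. Called genes of chromosome 4 named beyond these ranks were chosen after their values were seen. Replicates are separate animals per the labels' protocols.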

Additional observations from a re-analysis of the deposited data

How the results depend on the processing

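The fit was repeated with quantile normalization run again, with arrays centred on their medians, with eBayes trend alone or with its robust option, and with array weights. It was also repeated on brighter probe sets, on probe sets with a symbol, on gene means, with Y-linked signal as a covariate (2 arrays of 3 had it in each group), with the replicate number as a block and without each array in turn. In the 10 settings that keep all arrays Xpa stayed called, with differences of 2.03 to 2.14 and limma adjusted p of 0.00695 to 0.0267. Only renewed quantile normalization, median centring and array weights could move its difference, and the rest leave it at 2.09 by design. No other neighbour was called in any of the 16 settings. Leaving out an array gave 0 to 1 neighbours past the threshold and 3 to 6 with groups that do not overlap, the highest without knockout 3. Without 1 array, 27.3% to 29.3% of all probe sets have groups that do not overlap. Foxe1 was called in all 15 settings that tested it. The fit on brighter probe sets left out Foxe1 and 3 neighbours.

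Signs turned for differences near 0. With quantile normalization run again Tstd2 was at -0.00028 and Trim14 at 0.016. Trim14 was at 0.018 with median centring and at 0.031 with array weights. Without 1 array Tstd2 ran from -0.048 to 0.20, Trim14 from -0.26 to 0.10 and Nans from -0.07 to 0.35. The cause was not tested.

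Over all probe sets 75 were called, 109 with the eBayes trend, 118 with the trend and the robust option together and 2 to 43 without 1 array. With the replicate block 63 were called and Xpa had an adjusted p of 0.0236 at the same difference of 2.09. Same-numbered animals did not deviate together (correlations of -0.009, 0.076 and 0.017), so the number was not taken as a pairing. Genes near the bottom of the scale, such as Trmo and Hemgn, could show little fall.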
